A study of Danio rerio with 10 samples.

Results

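The response of microglia to the loss of neurons is described here from 6 RNA-seq libraries: 2 of control microglia (samples 1 and 5) against 4 of activated microglia, which comprise 24 h samples 3 and 7 and 48 h samples 4 and 8. These are 6 of 10 samples in the series, chosen by their labels, and both times were treated as 1 activated group because the series states that the activated samples were pooled in analysis. All fish were 3 months old and carried 2 transgenes, mpeg1:GFP and Neuro:NTR-mCherry. Activated microglia came from fish given metronidazole (MTZ) for 24 or 48 h and control microglia from fish given its solvent DMSO, with no MTZ. NTR (nitroreductase) converts MTZ into a toxic product inside the cells that hold the enzyme, here neurons. All sorted cells were GFP-positive, and because mpeg1 is active in macrophages generally, the sort can hold brain macrophages and related cells other than microglia. No group here had MTZ without NTR, so the drug and the loss of neurons cannot be told apart. Whether each sample was a separate animal or pool is not stated in the labels, so the p-values reflect the spread between samples, which may be technical.

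Microglia are the resident macrophages of the brain. They sense injury, engulf dying neurons and digest them in lysosomes, and they can divide locally when neurons are lost. In mammals such cells are often described as damage-associated microglia, with high lipid-handling genes, and inflammatory cytokines may or may not accompany that state.

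The column deposited for control sample 9 matched 24 h sample 3 in every one of 21756 genes and was left out, so the controls were 2 libraries. Which of these 2 libraries the shared values come from cannot be told. They are used here as 24 h sample 3, as labelled, and that identity is uncertain. With both identical columns left out, the test described below called 15 genes higher and 6 lower. The controls held 6900171 and 6897191 reads and the activated libraries between 8600052 and 12815571. Mitochondrial genes took 6.69% and 8.99% of reads in the controls and between 1.70% and 5.58% in the activated libraries. Depth and mitochondrial share thus moved with the group, and their part in the results below was not tested. Expression is given as the signal scaled by the authors, in which a gene without reads is listed at 0.223 and 3 reads add between 0.233 and 0.464 units in these libraries. The summed signal of 12 microglia marker genes ran from 27299 to 30890 in controls and from 30319 to 126950 in activated libraries. It was 223 to 745 in the 3 libraries of GFP-negative brain cells, so the marker sum was high in all 6 sorted libraries. Most of the sum came from apoeb alone, at 19552 and 22597 in controls and between 21274 and 101048 in activated libraries. That gene did not pass, and the rise of a sum that rests on it does not show a rise of all 12. Among the 12, 2 were called higher and 0 lower, with a median fold of 0.86. The reporter's own gene mpeg1.1, which encodes a pore-forming protein of macrophages, was at 2545 and 2734 in controls, 2103 and 2469 at 24 h, and 4454 and 6047 at 48 h, and its fold of 0.38 ± 0.51 (log2, SE) did not pass (limma, adjusted p = 0.691).

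Genes that passed the test and were higher in activated microglia included 25 of 55 DNA replication genes, 10 of 45 proteasome genes, 4 of 8 cytosolic chaperonin genes, 8 of 45 endoplasmic reticulum folding genes, 13 of 37 tRNA synthetase genes and 18 of 62 nuclear pore genes. These counts depend on control sample 1, as given below. When each library was left out in turn, the median folds of these lists stayed positive. They ranged from 1.62 to 2.04 for replication, 1.05 to 1.48 for proteasome and 1.06 to 1.67 for chaperonin genes. The ranges were 0.54 to 0.94 for endoplasmic reticulum folding, 0.88 to 1.52 for tRNA synthetase and 1.22 to 1.40 for nuclear pore genes. Lower were 3 of 53 chemokine genes, 4 of 43 cytokine genes and 5 of 27 dendritic cell genes. The gene ccl19a.1 counts in 2 of these lists. Among 21 antigen presentation genes 1 was lower, a class II gene. For comparison, 2.69% of all genes tested were higher and 1.01% lower. The replication gene mcm2 stood 15.9 times higher by group means, while the chemokine gene ccl19a.1 stood 33.9 times lower. Fold changes below are differences of log2(value + 1) between activated and control means with their standard error (SE), a scale that understates the change of weakly expressed genes. In bulk RNA such as this, fewer cells of a type and less RNA per cell cannot be told apart.

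In limma with Benjamini-Hochberg adjustment over all genes, 503 of 18701 genes tested were higher in activated microglia (2.69%) and 188 were lower (1.01%) at an adjusted p under 0.05. The smallest adjusted p was 0.00563, and 4293 genes had an unadjusted p under 0.05. Under quantile normalization the split was 448 higher and 325 lower. Over all genes tested, the 4 activated libraries lay above both controls in 18.0% of cases and below both in 17.0%, and the median fold was 0.01. All 503 higher and 188 lower genes had groups that did not overlap. They were chosen by a test on these same libraries, so the lack of overlap is no separate support. Their folds ran from 1.12 to 5.73 among the higher genes, with a median of 1.91, and among the lower ones the median was -1.99.

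These counts rest on few libraries. Without control sample 1 the same test called 0 genes in either direction (2009 at an unadjusted p under 0.05), and with the column of control sample 9 used as deposited it also called 0 and 0 (1638 at an unadjusted p under 0.05). Leaving out control sample 5 gave 18 higher and 2 lower, 24 h sample 3 gave 15 and 6, 24 h sample 7 gave 5 and 1, 48 h sample 4 gave 3 and 1, and 48 h sample 8 gave 2041 and 1074. No call of a single gene named below held in every one of these fits. With the column of sample 9 among the controls, the same values stood in both groups. That shrinks folds and widens the spread by construction, so the loss of calls in that fit says nothing about the other libraries. With no filter on low values, 182 genes were higher and 102 lower. Of the 29 function lists described below, 20 had higher and 0 lower genes in limma, with 0 to 3 genes a list lower at an unadjusted p under 0.05, and 5 had lower and 0 higher genes, with 0 to 3 a list higher at that level. limma-voom called 0 genes against the direction of these lists. It called only 26 genes higher and 20 lower in all. Higher were 6 replication genes, 2 each of proteasome, chaperonin and endoplasmic reticulum folding, and 1 each of chromatin assembly, nuclear pore and splicing. Lower were 5 dendritic cell genes and 1 chemokine gene. In every other function list it called 0 in either direction, among them mitosis, nucleotide synthesis, tRNA synthetase, translation factor, Nrf2 and cytokine genes. With so few calls, its 0 genes against the direction cannot speak for the direction of the lists.

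**Figure D1:**
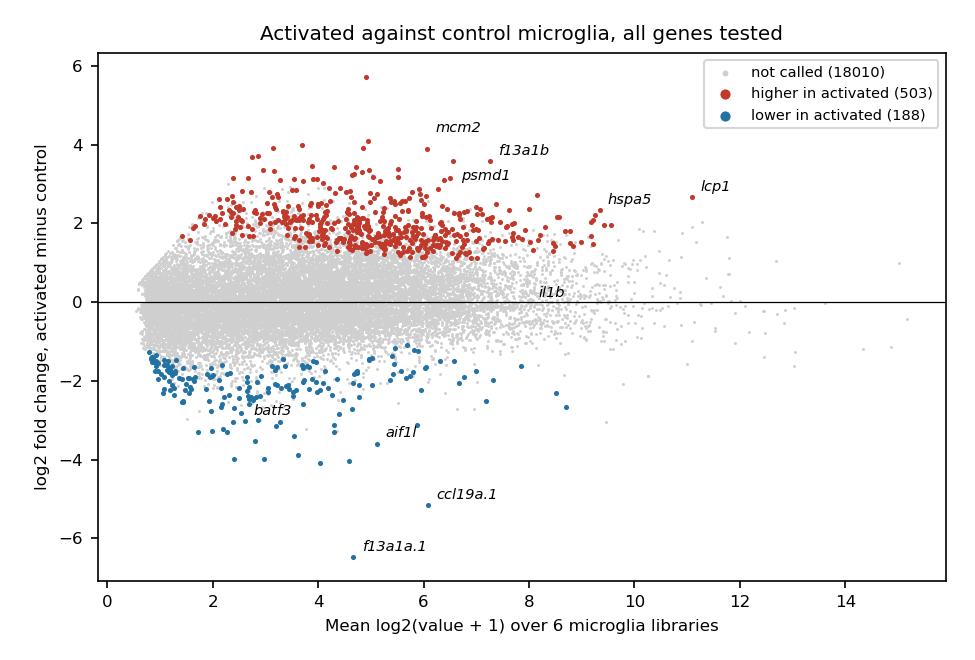
Each point is 1 of the 18701 genes tested; the x axis is the mean log2(value + 1) over 6 microglia libraries and the y axis the log2 fold change, activated minus control. The 503 genes called higher (red) and 188 called lower (blue) lie away from zero, with f13a1a.1 and ccl19a.1 at the lower edge, while il1b lies at zero.

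The called genes were chosen by the pooled test, so their values at each time are a description. The median fold of the 503 higher genes was 1.87 at 24 h and 1.89 at 48 h, and that of the 188 lower genes was -1.90 and -2.11. Both times share the same controls, so these values are given side by side only. Compared directly, 48 h with 24 h, 0 genes passed in limma (800 at an unadjusted p under 0.05, smallest adjusted p = 0.903), with 2 libraries at each time.

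Replication of DNA begins with the MCM2-7 helicase, which is loaded on origins and then unwinds the double strand ahead of the polymerases. Of 55 replication genes in the table all 55 passed the filter on low values, 25 were higher and 0 lower, with a median fold of 1.83 (1.72 at 24 h and 2.00 at 48 h). mcm2, a helicase subunit, was at 7.49 and 13.5 in controls, 199 and 172 at 24 h, and 178 and 116 at 48 h. All 4 activated libraries were far above both controls, and 48 h sample 8 was the lowest of them. Its fold was 3.89 ± 0.33 (adjusted p = 0.0082), between 3.50 and 4.27 when each library was left out, and it passed in 4 of those 6 fits. mcm7, another helicase subunit, was at 2.54 and 7.38 in controls and between 46.1 and 70.4 in activated libraries, a fold of 3.42 ± 0.39 (limma, adjusted p = 0.0154).

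The other helicase subunits moved by close amounts. mcm3, mcm4, mcm5 and mcm6 had folds of 3.1, 2.88, 2.87 and 3.17. pola2 and pold1, subunits of the polymerases that start and extend new strands, had folds of 2.75 and 2.64, and cdc45, which joins the helicase when it fires, 2.49. dnmt1 and uhrf1, which copy DNA methylation onto the new strand, rose by 2.83 and 2.1. pcna, the sliding clamp of the polymerases, was already abundant in controls at 122 and 135 and reached 518 and 328 at 24 h and 298 and 368 at 48 h. Its fold of 1.52 ± 0.30 was the smallest among the 25 called replication genes.

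Newly copied DNA is packed by histone chaperones, and 6 of 15 such genes were higher and 0 lower (median fold 1.96). chaf1a, the large subunit of the chromatin assembly factor, was at 4.09 and 6.62 in controls, 66.2 and 50.6 at 24 h, and 86.7 and 46.2 at 48 h. Every activated library exceeded both controls several-fold, giving a fold of 3.31 ± 0.35 (limma, adjusted p = 0.0127). Its partner chaf1b had a fold of 2.85, and ssrp1a and supt16h, the 2 subunits of the FACT histone chaperone, 2.69 and 2.60.

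Deoxynucleotides for replication come from ribonucleotide reductase. Of 30 nucleotide synthesis genes 6 were higher and 0 lower, with a median of 1.52. rrm1, the large reductase subunit, was at 20.3 and 11 in controls and between 66.0 and 77.5 in activated libraries, a fold of 2.19 ± 0.30 (limma, adjusted p = 0.0229). The small subunit rrm2 is listed under 2 gene identifiers, with folds of 2.30 for rrm2 ENSDARG00000078069 and 2.21 for rrm2 ENSDARG00000020711, and how reads were divided between these copies is uncertain. mthfd1b, an enzyme of folate metabolism, rose from 7.80 and 9.81 to between 36.3 and 103, the highest value being in 48 h sample 8.

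Mitosis genes, which act after replication, were positive as a group but passed less often in limma than replication genes. Of 53 such genes 6 were higher (11.3%, against 2.69% of all genes) and 0 lower. At an unadjusted p under 0.05 in limma, 32 were higher and 0 lower. In the authors' deposited comparison 29 of the 53 were higher at an FDR under 0.05, against 28 of the 55 replication genes. The fold was positive in all 53, with a median of 1.03 at 24 h and 2.57 at 48 h. Both times form 1 group in the test, so a gap between them widens the standard error. Its part in the lower number of passing mitosis genes was not tested. Over all genes tested the median fold was 0.01. kif11, the motor that separates spindle poles, was at 0.84 and 1.29 in controls, 27.8 and 10.4 at 24 h, and 91.9 and 35.2 at 48 h. The groups did not overlap, yet activated libraries spread over almost a 9-fold range, and the fold was 3.98 ± 0.71 (limma, adjusted p = 0.0319). ncapd2, a condensin subunit that compacts chromosomes, was at 1.15 and 3.72 in controls, 21.6 and 14.4 at 24 h, and 37.6 and 36.8 at 48 h, with a fold of 3.07 ± 0.50.

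The mitotic kinase cdk1 stood at 12.4 and 9.81 in controls, 38.9 and 24.7 at 24 h, and 108 and 148 at 48 h. It did not pass (fold 2.41 ± 0.67, adjusted p = 0.0849 in limma) although all activated values lay above both controls. mki67, a protein of dividing cells, stood at 51.5 and 16.7 in controls and between 43.3 and 212 in activated libraries, with overlap between the groups (fold 1.67, adjusted p = 0.178). The mitotic cyclin ccnb1 also overlapped, at 6.10 and 2.81 in controls, 8.05 and 5.26 at 24 h and 24.5 and 26.2 at 48 h. For none of these genes did 48 h differ from 24 h after adjustment.

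**Figure D2:**
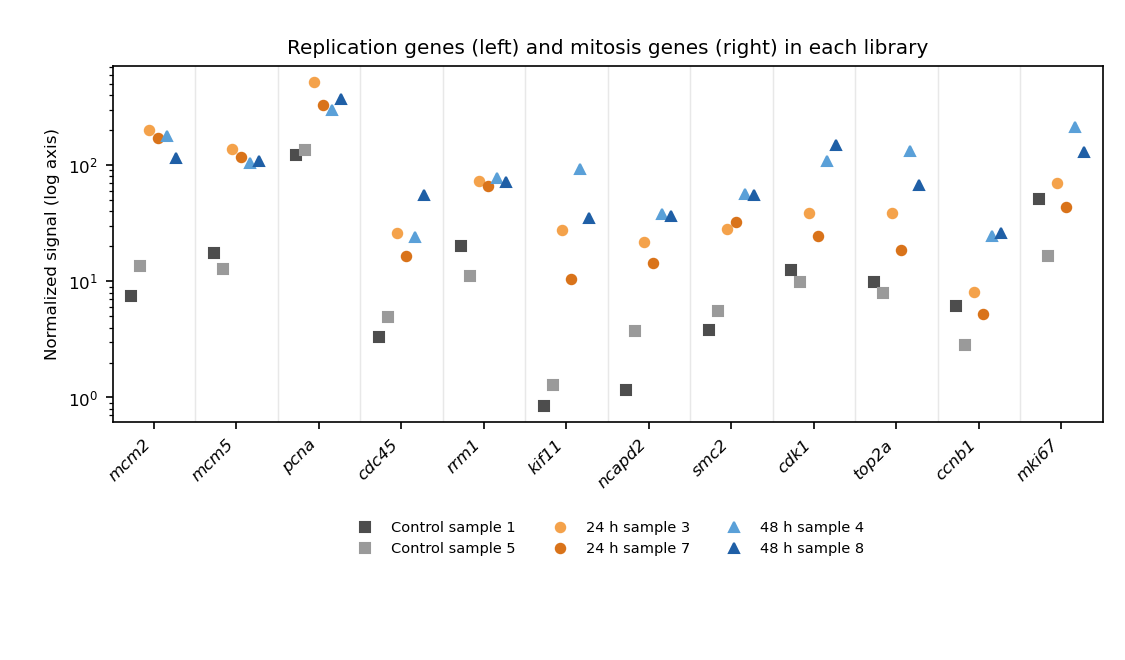
Normalized signal (log axis) of 5 replication and nucleotide genes (mcm2, mcm5, pcna, cdc45 and rrm1) and of 7 mitosis genes (kif11 to mki67), 1 symbol per library. Replication genes reach similar levels in all 4 activated libraries, whereas cdk1, top2a and ccnb1 are highest in both 48 h libraries.

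Entry into the cycle is set by G1 cyclins and the E2F-Rb axis, where 3 of 27 genes tested were higher and 0 lower (29 in the table, median 0.74). ccne2, the cyclin that drives entry into S phase, rose from 2.39 and 5.09 to between 9.99 and 28.1. e2f3, a transcription factor of S phase genes, had a fold of 1.5, and rb1, the retinoblastoma protein that restrains E2F, 1.37. An activating and a restraining gene of the axis rose together in these libraries.

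Damaged or surplus proteins are degraded by the 26S proteasome, a barrel capped by regulatory particles. Of 45 proteasome genes 10 were higher and 0 lower, with a median fold of 1.32, against 0.01 over all genes tested, and 42 had a positive fold. psmd1, a scaffold of the regulatory cap, was at 11.2 and 25.8 in controls, 205 and 244 at 24 h, and 252 and 169 at 48 h. Its lowest activated value was over 6 times the higher control, and the fold was 3.58 ± 0.36 (limma, adjusted p = 0.0102). psmd2, a second scaffold of the cap, was at 8.26 and 9.05 in controls and between 82.9 and 121 in activated libraries (3.38 ± 0.28). A second copy, PSMD2 (2 of 2), stood at 3.93 and 3.57 against 59.5 to 79.3 (3.92 ± 0.27), and the split of reads between these copies is uncertain. psmd3, also of the cap, and psmb7, a catalytic subunit of the barrel, had folds of 3.17 and 2.27.

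In the cytosolic chaperonin, the ring that folds actin and tubulin, 4 of 8 subunit genes were higher and 0 lower. All 8 had activated values above both controls, as had 18.0% of all genes tested. In the authors' deposited comparison 0 of the 8 were at an FDR under 0.05. CCT2 was at 2.70 and 2.66 in controls and between 12.9 and 23.2 in activated libraries (2.28 ± 0.36). tcp1 was at 48.4 and 65.4 in controls, and at 265, 264 and 263 in 3 activated libraries but 210 in 48 h sample 4 (2.13 ± 0.26). cct4 and cct5 had folds of 1.94 and 1.31.

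Among genes of folding in the endoplasmic reticulum and of its unfolded protein response, 8 of 45 were higher and 0 lower (median 0.79). hspa5, the main Hsp70 chaperone of that compartment, was at 202 and 236 in controls, 1200 and 1527 at 24 h, and 1014 and 823 at 48 h. The activated values all exceeded 3 times the higher control, with both 24 h libraries above both 48 h libraries, and the fold was 2.34 ± 0.33 (limma, adjusted p = 0.0229). It passed in 1 of the 6 fits that each left out a library. pdia6, which forms disulphide bonds, rose by 2.34 ± 0.50 with controls far apart at 36.8 and 116. hsp90b1 and canx, chaperones of secretory proteins, had folds of 2.15 and 1.95. The stress regulators xbp1 and ddit3 did not pass, with folds of -0.15 and -0.31 (limma, adjusted p = 0.791 and 0.716).

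**Figure D3:**
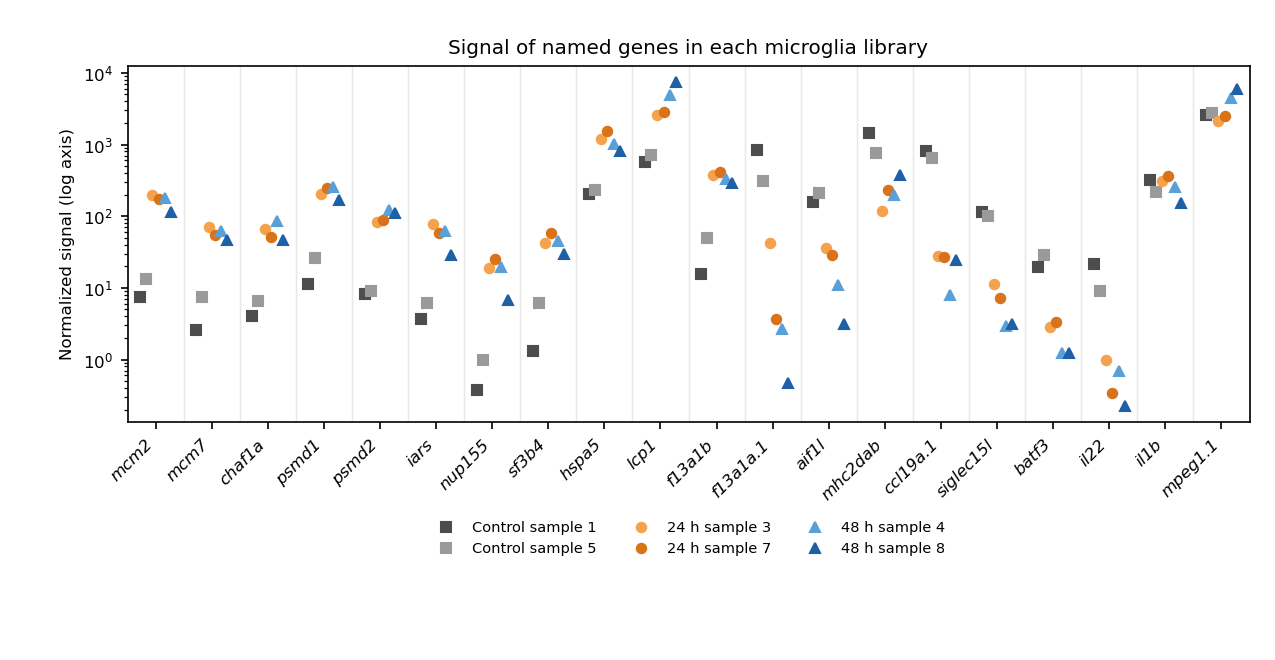
Normalized signal (log axis) of 20 genes in each of 6 microglia libraries; squares are controls, circles 24 h and triangles 48 h. From mcm2 to f13a1b the 4 activated libraries lie above both controls, from f13a1a.1 to il22 they lie below both, and for il1b and mpeg1.1 the groups overlap.

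Aminoacyl-tRNA synthetases, which load tRNAs with amino acids, had 13 of 37 members higher and 0 lower (median 1.28). iars, the isoleucine enzyme, was at 3.62 and 6.16 in controls, 77.8 and 58.7 at 24 h, and 61.2 and 29.2 at 48 h. The lowest activated library, 48 h sample 8, still exceeded the higher control more than 4-fold, and the fold was 3.24 ± 0.42 (limma, adjusted p = 0.021). eprs, which charges glutamate and proline tRNAs, rose by 2.64 ± 0.48, from 12.6 and 16.8 to between 41.7 and 136.

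Of 80 initiation and elongation factors tested, 7 were higher and 0 lower (median 0.55). eef2b, the factor that moves the ribosome along, was at 207 and 245 in controls, 1269 and 1135 at 24 h, and 1113 and 543 at 48 h. eif4g1a, an initiation scaffold, was at 27.1 and 75.3 in controls and at 270, 273 and 253 in 3 activated libraries, against 116 in 48 h sample 8. Of 55 ribosome biogenesis genes 5 were higher and 0 lower (median 0.79), among them utp18 and bop1, which process ribosomal RNA, with folds of 2.1 and 2.07.

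Among 81 structural protein genes of the cytosolic ribosome 0 were higher and 0 lower in limma (1 and 6 at an unadjusted p under 0.05, 0 and 0 in limma-voom), and the median fold was -0.49. The median over these genes lay at -1.25 relative to the controls' mean in 48 h sample 4 and at 0.03 in 48 h sample 8, so the activated libraries differed among themselves. rpl38, a large subunit protein, was at 479 and 282 in controls, 256 and 185 at 24 h, and 70.4 and 245 at 48 h (fold -1.12 ± 0.53, adjusted p = 0.251). rps29, of the small subunit, had a fold of -1.05 ± 0.46 (limma, adjusted p = 0.222).

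Of 62 nuclear pore and transport genes 18 were higher and 0 lower, with a median of 1.25. nup155, part of the inner ring of the pore, was at 0.38 and 0.98 in controls, 18.8 and 25.3 at 24 h, and 19.3 and 6.74 at 48 h. Both controls were near the level of a few reads and 48 h sample 8 was the lowest activated library, with a fold of 3.35 ± 0.52 (limma, adjusted p = 0.0258). nup205, another inner ring protein, was at 11.7 and 11.9 in controls and between 31.8 and 105 in activated libraries. kpnb1 and xpo1a, the main import and export receptors, had folds of 1.90 and 1.73.

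In splicing, 11 of 80 genes tested were higher and 0 lower (median 0.65). sf3b4, of the complex that recognises the branch point, was at 1.31 and 6.16 in controls, 42.0 and 58.4 at 24 h, and 45.6 and 29.9 at 48 h (fold 3.43 ± 0.48, limma adjusted p = 0.0229). prpf6, of the U5 particle, had near-equal controls of 12.1 and 12.3 and activated values between 59.2 and 99.3 (2.57 ± 0.29). Of 20 coat genes of vesicles between the endoplasmic reticulum and the Golgi, 5 were higher and 0 lower (median 1.03). The COPI subunit copa was at 25.9 and 75.4 in controls and between 189 and 292 in activated libraries, and the COPII subunit sec24a at 3.78 and 5.70 against 12.3 to 55.5.

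**Figure D4:**
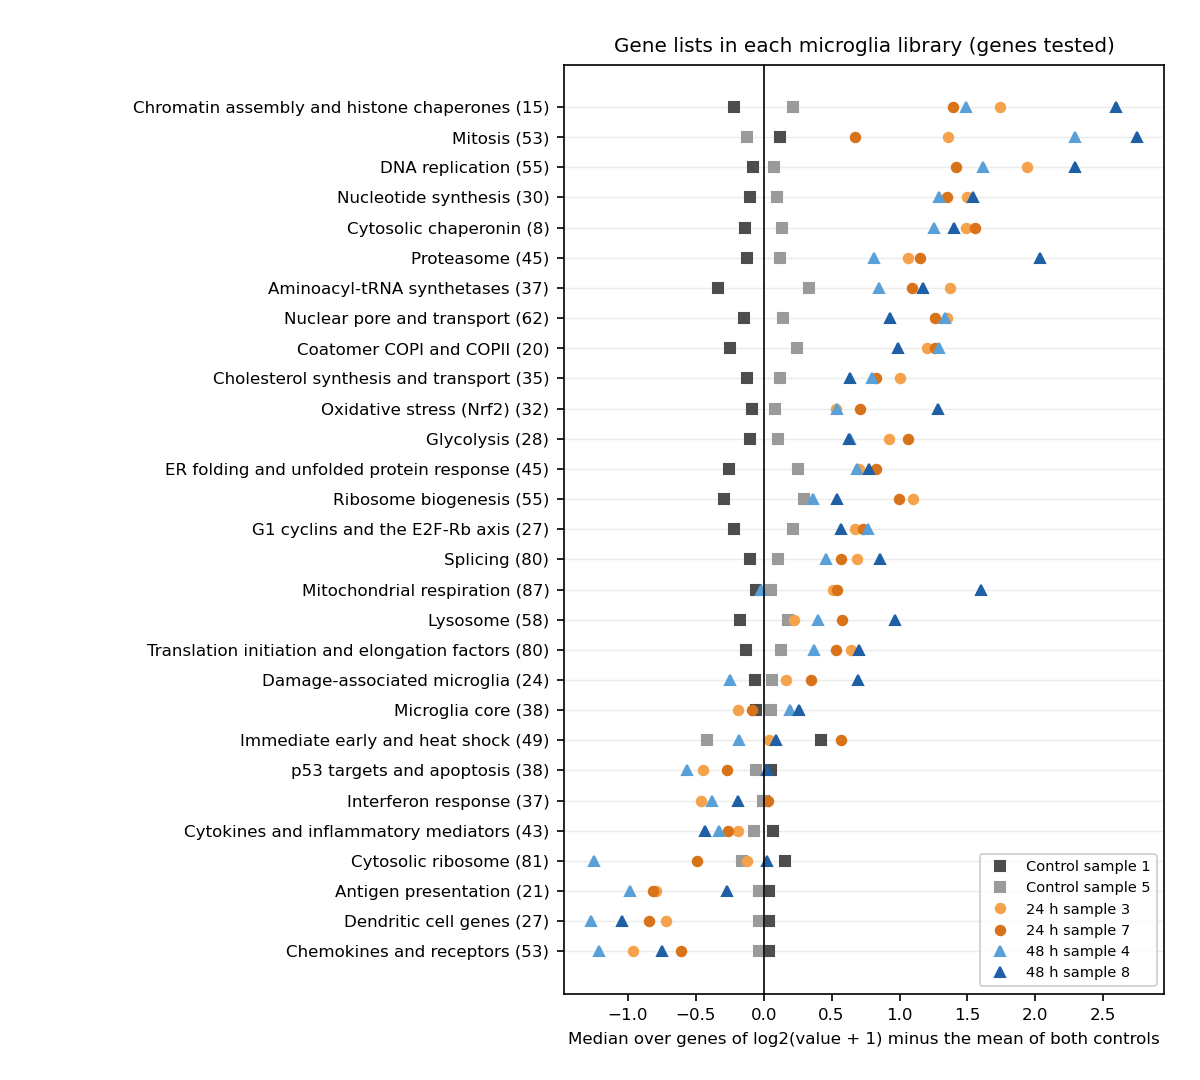
For each of 29 gene lists (number of genes tested in brackets), the median over its genes of log2(value + 1) minus the mean of both controls, 1 symbol per library. Replication and chromatin assembly genes lie to the right of both controls in all 4 activated libraries, chemokine and dendritic cell genes to the left, and 48 h sample 8 stands apart for proteasome and mitochondrial respiration genes.

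Of 28 glycolysis genes tested 5 were higher and 0 lower (median 0.80). gpia, the second enzyme of glycolysis, was at 81.2 and 89.3 in controls and at 402, 357 and 315 in 3 activated libraries, against 833 in 48 h sample 8 (2.36 ± 0.40). The enolase gene eno1b rose from 3.31 and 6.77 to between 18 and 42.1, again with 48 h sample 8 the highest. pkma and aldoaa, pyruvate kinase and aldolase genes, had folds of 1.49 and 1.43.

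Of 87 mitochondrial respiration genes tested 3 were higher and 0 lower, which is 3.45% against 2.69% of all genes. atp5b, the catalytic subunit of ATP synthase, was even across activated libraries, at 880 and 772 at 24 h and 907 and 861 at 48 h, against 224 and 320 in controls (1.67 ± 0.28). sdhb, of succinate dehydrogenase, had a fold of 1.85 and ndufs1, of complex I, 1.65. In cholesterol synthesis and transport 2 of 35 genes were higher and 0 lower: hmgcs1 and hmgcrb, which act at the start of synthesis, with folds of 1.69 and 1.61. Those 2 genes are 5.71% of the list, against 2.69% of all genes tested, and the list's median was 0.82.

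The lysosome digests engulfed material and is acidified by a proton pump. Of 58 lysosome genes tested 4 were higher and 0 lower (median 0.57) and the 4 are pump subunit genes. atp6v1d was at 42.3 and 54.6 in controls, 139 and 199 at 24 h, and 272 and 170 at 48 h (1.95 ± 0.32, limma adjusted p = 0.0283). atp6v1ab, atp6v1h and atp6v1aa had folds of 1.59, 1.56 and 1.36. Other pump genes did not pass, among them atp6v1b2 (-1.33 ± 0.44, limma adjusted p = 0.123) and atp6v0cb (-1.14 ± 0.51, limma adjusted p = 0.224), whose folds were negative. The protease gene ctsd stood at 242 and 866 in controls and between 954 and 2842 in activated libraries and did not pass (fold 1.86 ± 0.61, limma adjusted p = 0.12).

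The Nrf2 response counters oxidants, and 7 of its 32 genes tested were higher and 0 lower (median 0.82). keap1b, which holds Nrf2 in check, was at 0.53 and 2.51 in controls and between 15 and 23.3 in activated libraries (3.1 ± 0.43). tktb, of the pentose phosphate pathway, was at 70.5 and 93.8 in controls, 468 and 437 at 24 h, and 311 and 191 at 48 h. SLC7A11, the cystine importer, and gclc, which starts glutathione synthesis, had folds of 1.76 and 1.36. The fold was positive in 29 genes of the list and negative in 3. Not all members rose clearly. When each library was left out, the fold ran from -0.32 to 0.27 for hmox1a, -0.14 to 0.45 for srxn1 and -0.18 to 0.50 for sqstm1. Among 49 immediate early and heat shock genes tested, the chaperone genes hspd1 and hspa4b were higher (1.91 and 1.36) and 0 were lower. Those that passed are 4.08% of the list, against 2.69% of all genes tested. The median of that list was -0.10 and changed sign in several settings, to 0.21 without control sample 1, for example. Of 38 genes of p53 and apoptosis 0 passed in limma in either direction (2 higher and 4 lower at an unadjusted p under 0.05, 0 in limma-voom). apaf1, the scaffold of the apoptosome, had the largest fold of those with a mean of at least 20, at 1.82 ± 0.44 (adjusted p = 0.0608), and gadd45ga stood at -1.27 ± 0.41 (adjusted p = 0.116).

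Microglia genes moved in both directions. Of 38 core microglia genes tested, 3 were higher and 1 lower, and the median of -0.08 became 0.08 without control sample 5. lcp1, which bundles actin in leukocytes, was at 562 and 721 in controls, 2590 and 2828 at 24 h, and 4840 and 7409 at 48 h. The order followed the time of MTZ with no overlap, the fold was 2.66 ± 0.49 (limma, adjusted p = 0.0348), and 48 h did not differ from 24 h after adjustment. The purine receptor gene p2ry12, a marker of resting microglia in mammals, was at 15.4 and 21.2 in controls, 57.7 and 57.8 at 24 h, and 64.4 and 42.3 at 48 h (1.55 ± 0.29). mafba, a transcription factor of macrophages, had a fold of 1.51.

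The called core gene that fell was aif1l, related to the actin-binding microglia marker Iba1, at 159 and 210 in controls, 35.4 and 29.1 at 24 h, and 10.9 and 3.1 at 48 h. Values at 48 h were below those at 24 h, with a fold of -3.60 ± 0.79 (limma, adjusted p = 0.0484). csf1ra, a receptor for macrophage growth factor, stood above controls in all 4 libraries but did not pass (1.02 ± 0.39, adjusted p = 0.171), and its paralogue csf1rb stood at -1.19 ± 0.33 (adjusted p = 0.0841). apoeb, an apolipoprotein, was at 19552 and 22597 in controls, 21274 and 26111 at 24 h, and 55583 and 101048 at 48 h, and with overlap between groups it did not pass (limma, adjusted p = 0.505).

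Among 24 damage-associated microglia genes tested, 1 was higher and 1 lower. Each is 4.17% of the list, while 2.69% of all genes tested were higher and 1.01% lower. spp1, the secreted phosphoprotein osteopontin, rose from 3.31 and 0.22, the latter the value of 0 reads, to between 11.5 and 24.9 (2.81 ± 0.55, limma adjusted p = 0.0373). tyrobp, the DAP12 adaptor of activating receptors, fell from 22.0 and 15.3 to 2.24 and 3.73 at 24 h and 1.14 and 4.61 at 48 h (-2.40 ± 0.47). The related adaptors hcst and fcer1g, picked after their values were seen, also fell: hcst from 41.5 and 43.3 to between 4.11 and 7.74, and fcer1g from 103 and 94.1 to between 21.6 and 32.4. The median of that list, 0.21, turned to -0.05 without control sample 1 and to -0.04 without 48 h sample 8.

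A coagulation transglutaminase that macrophages also make appeared on both sides. f13a1b, a factor XIII A gene, was at 15.8 and 49.4 in controls, 370 and 420 at 24 h, and 327 and 291 at 48 h (3.59 ± 0.42, limma adjusted p = 0.0176). f13a1a.1, another factor XIII A gene, was at 830 and 307 in controls, 42.2 and 3.62 at 24 h, and 2.62 and 0.47 at 48 h (-6.47 ± 1.14, adjusted p = 0.0318). Controls and activated libraries were separate for both genes, and for f13a1a.1 the 24 h sample 3 lay well above the other 3 activated libraries. Whether short reads were assigned cleanly among these related genes is uncertain.

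Chemokine genes were lower as far as they passed. Of 53 chemokine and receptor genes tested 3 were lower and 0 higher, which is 5.66% against 1.01% of all genes, with a median of -0.83. The fold was negative in 47 of them and positive in 6. ccl19a.1, related to the mammalian chemokine that draws dendritic cells and T cells through CCR7, was at 820 and 653 in controls, 28.1 and 26.6 at 24 h, and 7.88 and 24.4 at 48 h. Every activated library was more than 20 times below the lower control, and the fold was -5.15 ± 0.49 (limma, adjusted p = 0.0099), with calls in 4 of 6 fits that each left out a library. ccl39.2 and ccl39.5, of a fish chemokine cluster of similar genes, had folds of -2.29 and -2.12. ccl33.3 stood at 356 and 336 in controls but ranged from 18.8 to 224 in activated libraries and did not pass (limma, adjusted p = 0.107). The receptor genes ccr12b.2 and ccr12b.1 kept positive folds when each library was left out, 0.78 to 2.28 and 0.46 to 1.70. The summed signal of the whole list was 9227 and 8476 in controls. It was 11250 in 48 h sample 8 but 3791 to 4834 in the other activated libraries.

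Interleukin genes accounted for the cytokines that passed, and the inflammatory genes il1b and tnfa did not pass. Of 43 cytokine and mediator genes tested 4 were lower and 0 higher (median -0.35). The fold was negative in 29 of them and positive in 14. The summed signal of the whole list overlapped, at 2809 and 2246 in controls and between 2144 and 2815 in activated libraries. il22, which acts on epithelia in mammals, was at 21.7 and 9.05 in controls, 1.00 and 0.34 at 24 h, and 0.68 and 0.22 at 48 h, the last being 0 reads (-3.30 ± 0.43, limma adjusted p = 0.021). il12ba, of the interleukin that drives type 1 T cells, was at 33.0 and 11.3 in controls and between 0.22 and 3.01 in activated libraries (-3.23 ± 0.61). il15 and il13 had folds of -2.03 and -1.94.

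il1b, the inflammatory interleukin, was at 320 and 218 in controls, 312 and 366 at 24 h, and 254 and 155 at 48 h. The groups overlapped fully and the fold was -0.03 ± 0.38 (limma, adjusted p = 0.972). tnfa, tumour necrosis factor, was at 21.1 and 11.3 in controls, 3.87 and 6.08 at 24 h, and 3.54 and 13 at 48 h, with overlap through 48 h sample 8 (-1.27 ± 0.53, adjusted p = 0.196). Of 37 interferon response genes 0 were higher and 1 was lower, mxb, an antiviral GTPase, with a fold of -1.85 ± 0.41. That 1 gene is 2.70% of the list, against 1.01% lower among all genes tested.

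Dendritic cells present antigen to T cells and can lie near the brain's surfaces. Of 27 dendritic cell genes tested 5 were lower and 0 higher (median -0.81). The fold was negative in 22 of them and positive in 5, while the median over all genes tested was 0.01. batf3, a transcription factor needed for a class of dendritic cells in mice, was at 19.7 and 28.7 in controls, 2.86 and 3.38 at 24 h, and 1.25 and 1.23 at 48 h. Both times were well below controls and 48 h lay below 24 h, with a fold of -3.03 ± 0.43 (limma, adjusted p = 0.0232). siglec15l, a sialic acid-binding lectin, was at 115 and 101 in controls, 11.5 and 7.25 at 24 h, and 2.97 and 3.1 at 48 h (-4.09 ± 0.50). hepacam2 and id2a, the latter an inhibitor of helix-loop-helix factors, had folds of -3.12 and -1.76, and ccl19a.1 is the fifth gene. flt3, a growth factor receptor of dendritic cells in mammals, stood at 69.8 and 60.0 in controls against 2.85 to 20.5 and did not pass (limma, adjusted p = 0.0698). Not all members fell. When each library was left out, the fold of the dendritic cell marker zbtb46 stayed between 0.38 and 0.67. That of fscn1a ran from 0.10 to 1.62 and that of fscn1b from 0.01 to 1.89.

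Class II molecules hold peptides for T cells. Of 21 antigen presentation genes 1 was lower and 0 higher (median -0.65). mhc2dab, a class II beta chain, was at 1426 and 773 in controls, 119 and 236 at 24 h, and 194 and 372 at 48 h (-2.30 ± 0.46, limma adjusted p = 0.0386). The invariant chain genes cd74a and cd74b stood below controls in every activated library and did not pass, with folds of -1.26 and -1.58 (limma, adjusted p = 0.143 and 0.059).

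Markers of other cells also moved with the groups. The summed signal of 6 neuron markers was 123 to 128 in controls and 51.7 to 88.0 in activated libraries, against 1619 to 2835 in GFP-negative brain cells. For 6 oligodendrocyte markers it was 1013 to 2009 against 251 to 610, for 3 erythrocyte markers 41.3 to 240 against 5.36 to 15.1, and for 6 lymphocyte markers 22.5 to 33.8 against 6.94 to 15. For 7 dendritic cell markers it was 443 to 478 against 146 to 194. GFP-negative brain cells lay between these ranges, so the fall of that sum cannot be tied to dendritic cells alone. The sums from neuron to dendritic cell markers were lower in all 4 activated libraries. That of a longer neuron list, however, was 474 and 488 in controls and 508 in 48 h sample 8. The part of such cells in the lower genes above was not tested. Sums over 6 neutrophil markers overlapped (14.2 to 15.5 against 6.94 to 36.6), with the lysozyme gene lyz under 1 unit in all 6 libraries. Sums over 5 endothelial markers were higher, 238 to 263 against 340 to 472. They were far lower in GFP-negative brain cells than in any sorted library, so more endothelial cells cannot be read from them. Members of the longer endothelial list moved both ways. When a library was left out, the folds of cdh5 and flt1 stayed negative and those of fli1a and tie1 stayed positive. Sums over 5 radial glia markers, 3796 to 4808 against 3104 to 27189, rested on the glutamine synthetase gene glula, which reached 26928 in 48 h sample 8.

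In the longer lists, passing genes were 1 lower of 30 for neurons (3.33%) and 2 lower of 13 for oligodendrocytes (15.4%). For erythrocytes 4 of 15 were lower (26.7%) and for radial glia 2 of 22 (9.09%), against 1.01% of all genes tested. There were 2 higher and 1 lower of 13 for endothelium and 0 of 13 and 0 of 17 in limma for neutrophils and lymphocytes (0 and 6, all lower, at an unadjusted p under 0.05, and 0 in limma-voom). The haemoglobin genes ba1 and ba1l are among the 10 largest negative folds of called genes with a gene symbol. ba1 was at 400 in control sample 1 but 58.2 in control sample 5, against 5.48 to 14.4 in activated libraries, so its fold of -4.02 ± 0.71 rests on controls that differ widely. ba1l was likewise at 181 and 28.8 in controls. Such near-identical globin genes may also share reads.

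Others among the 10 largest folds of called genes with a symbol on each side were less annotated or near zero in 1 group. vcanb, the matrix proteoglycan versican, rose from 0.69 and 11.9 to between 46.8 and 165 (4.1 ± 0.80). BX004816.4, for which the files give no function, had the largest fold, 5.73 ± 0.43, from 1.00 and 1.29 to between 69.6 and 185. In the authors' deposited table its pooled fold is 0.14 with an FDR of 0.983, and the reason for the difference was not tested. trip13, an ATPase of chromosome segregation, had 0 reads in both controls and between 64 and 350 reads in activated libraries, at least 74.7-fold higher against 3 reads over both controls. mms22l, a gene of fork repair, had 3 reads in controls and 809 in activated libraries, a ratio of scaled signal of 92.1 (95% exact interval 31.4 to 448, counting error only).

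The lower side held 2 copies of a chemerin receptor gene, through which plasmacytoid dendritic cells and macrophages migrate in mammals. CMKLR1 (3 of 3) was at 50.8 and 47.1 in controls, 4.88 and 1.86 at 24 h, and 3.77 and 0.22 at 48 h (-3.99 ± 0.61, limma adjusted p = 0.0258). CMKLR1 (2 of 3) followed at -3.52 ± 0.58. si:busm1-104n07.3 and zgc:171686, without a described function in the files, had folds of -3.98 and -3.40.

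The authors' deposited table gives a pooled comparison at an FDR under 0.05. It does not name its control libraries, which may differ from samples 1 and 5. Among the genes tested here it has 501 higher and 566 lower, and 197 of the 503 higher calls (39.2%, and 39.3% of theirs) and 175 of the 188 lower calls (93.1%, and 30.9% of theirs) are in it. The authors' deposited table has a median fold of 1.41 over the higher genes and -2.62 over the lower ones. For mcm2 the authors' deposited table has 2.24 (FDR 0.0399), for psmd1 1.95 (FDR 0.0843), for hspa5 1.34 (FDR 0.163), for ccl19a.1 -5.04 and for batf3 -3.54.

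**Figure D5:**
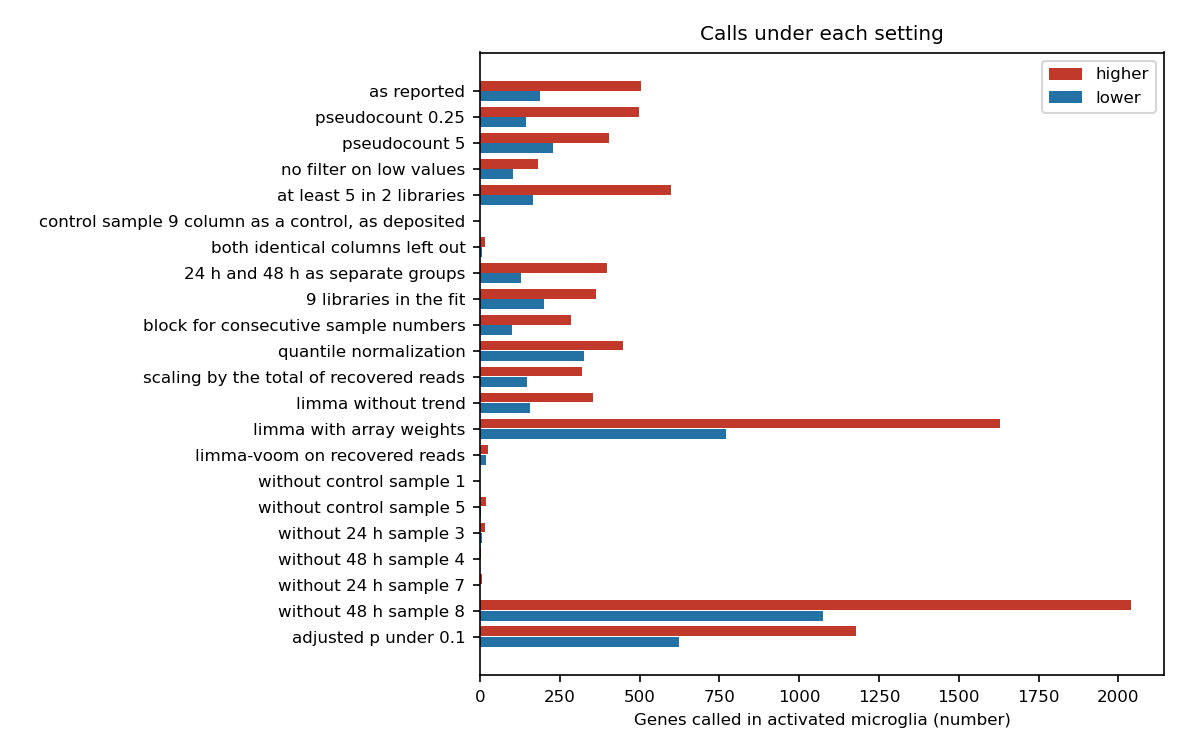
Number of genes called higher (red) and lower (blue) in activated microglia under the reported test and each alternative, on a linear axis from 0. The reported 503 and 188 fall to 0 and 0 without control sample 1 and rise to 2041 and 1074 without 48 h sample 8.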

How the data were processed

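RNA of sorted cells was made into libraries from low input and sequenced as single 50-nt reads, per the labels' protocols. Genome build GRCz10 and the tools edgeR, SAMtools 0.1.18 and TopHat2 2.0.5 are listed, per the submitters' processing notes; the counting, annotation and scaling are not given in the sources used here. The values table deposited by the authors holds a scaled signal per gene, a whole number of equal steps above 0.223 in every column, so totals of reads were computed from the steps. The comparison table deposited by the authors holds log2 fold changes and FDR values (adjusted p-values).

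Here, a gene was kept when 2 or more of the 6 libraries reached a value of 1 (18701 of 21756). log2(value + 1) was fitted with limma 3.58.1 in R 4.3.3 (lmFit, eBayes with trend, statmod 1.5.0), with 4 residual degrees of freedom, two-sided tests and Benjamini-Hochberg adjustment over all genes tested. The script was tested on simulated data. Tables and plots used matplotlib 3.10.9, pandas 2.3.3 and numpy 2.4.6 in Python 3.11.15. edgeR was not run here. As an alternative, limma-voom was run on the reads computed from the steps, with the authors' scaling.

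The members and the 29 function and 7 marker lists were chosen with earlier results of these data known. The 1255 genes in function lists include 1225 that passed the filter. Named genes, 76 in all, included mcm2, psmd1, hspa5, ccl19a.1 and batf3 and 6 reference genes. They also included the 10 largest folds on each side among called genes with a symbol and no overlap between groups. The rest were the 2 called members of each function list with the largest folds (with none called, the 2 largest at a mean of at least 20). Other list members in the text were named after their values were seen. Depth limits genes of few reads; intervals cover counting error only. No sequences or positions are given because the gene tables at hand belong to another build.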

Additional observations from a re-analysis of the deposited data

Results flagged for a closer look

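Among the 76 named genes, 8 had 1 of the 4 activated libraries far from the other 3, by the gap to its nearest neighbour as a share of the whole range (above Dixon's critical value for 4 samples). The gaps were taken on the signal without a log, whereas the tests used log2(value + 1). Chance alone flags about 1 group in 20 if values are normally distributed, which was not checked for these signals. The share was 0.885 for trip13, 0.913 for the succinate dehydrogenase gene sdhb, 0.831 for gpia, 0.963 for eno1b and 0.957 for apaf1, each with 48 h sample 8 the highest. For the initiation factor gene eif4g1a it was 0.875, with 48 h sample 8 the lowest. It was 0.965 for tcp1, with 48 h sample 4 the lowest, and 0.925 for f13a1a.1, with 24 h sample 3 the highest. So 48 h sample 8 was the outlying library in 6 of the 8 genes. It also had the lowest mitochondrial share of reads, 1.70%, and the largest column sum, 1444667; their part in these values was not tested.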

How the results depend on the processing

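Counts of genes higher and lower were 503 and 188 as reported. They were 182 and 102 with no filter on low values, and 15 and 6 with both identical columns left out. With the column of sample 9 among the controls, which puts the same values in both groups, they were 0 and 0. A block for consecutive sample numbers gave 286 and 99, array weights 1629 and 772, and limma-voom 26 and 20. At an adjusted p under 0.1 they were 1179 and 622. Scaling by total reads called 320 higher and quantile normalization 325 lower. Leaving out 1 library gave 0 to 2041 higher and 0 to 1074 lower. The fold of il1b, -0.03, turned to 0.22 with array weights, and ranged from -0.30 to 0.25 when 1 library was left out. The cause was not tested in any of these. Pseudocounts of 0.25 and 5, a filter at 5, both times as separate groups, 9 libraries in the fit and limma without trend kept both counts within 1.5 times. No list median changed sign under quantile or total-read scaling. The labels give the groups no shared replicate numbers, so the block for consecutive sample numbers is no pairing that they state. The planned edgeR test and TMM scaling were not run; voom used the authors' scaling. With 2 control libraries, weakly expressed genes are the least certain.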

Other observations

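Other called genes lay outside the lists of the report and were picked after their values were seen, so they are given as a description. Of the 503 higher genes 154, and of the 188 lower genes 15, belonged to a function list. Genes that oxidise fatty acids in mitochondria were among the rest, with folds in limma of 2.28 ± 0.40 for hadhaa, 2.04 ± 0.36 for hadhb and 2.17 ± 0.38 for acads. Also higher were suclg1, dlat and dlst, which feed or turn the citric acid cycle, at 2.17, 2.16 and 2.09.

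The oligosaccharyl transferase genes rpn1 and STT3B, which add sugars to new secretory proteins, had folds of 2.5 and 2.37. vcp, an ATPase that extracts proteins for degradation, was at 125 and 146 in controls and at 478, 516 and 473 in 3 activated libraries, against 1173 in 48 h sample 8. Of genes that shape the cell cortex, myh9a, a nonmuscle myosin, and iqgap1, an actin scaffold, had folds of 2.25 and 2.45. Among lower genes, the leukocyte adhesion gene sell was at 82.7 and 86.7 in controls and between 36.4 and 41.5 in activated libraries, with little spread on either side (-1.09 ± 0.24, limma adjusted p = 0.0489). The sialic acid-binding lectin gene SIGLEC1 (51 of 51), from a family of many similar copies, was at 29.9 and 31.4 against 9.53 to 10.3, and the assignment of reads among those copies is uncertain.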
